A study of Mus musculus with 6 samples.

Results

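Solute carrier genes encode membrane transport proteins, and the peaks assigned to them were drawn here from ChIP-seq of E2A in neural stem cells. A peak was a member when the authors' annotation gave it a nearest gene whose symbol was Slc, a family number, the letter a and a member number, with Slc22a18 left out. That rule took 1305 of the 91185 peaks in the 5 deposited peak lists, and these fell on 202 genes of 44 families. Slc22a18 had 0 peaks in every list. Symbols with another letter, such as those of the nucleotide-sugar carriers named with b to f, and the Slco genes lie outside the rule.

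The cells were embryonic day E12.5 neural stem cells of strain C57BL/6J, cultured with FGF-2 and EGF to keep them dividing and given no treatment. The groups were E12KO (labelled E12-/-, 1 library), E47KO (labelled E47-/-, 1 library) and wild type, written wt below (3 libraries). Every library was precipitated with the same antibody against E2A after fixation with EGS and formaldehyde. The comparison asks which sites are still found when one of the E2A proteins is missing. The E2A gene, Tcf3, gives rise to E12 and E47 by alternative splicing, and both are basic helix-loop-helix proteins that bind the E-box, whose letters are CANNTG. Nothing in the labels tells if the 3 wt libraries are from separate embryos or cultures, so their spread may be technical. With 1 library per knockout there is no replicate check and no test between genotypes, and peak lists measure no expression, so neither the cell type nor the loss of E12 or E47 was checked with them. The input library was not analysed here.

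Solute carriers move amino acids, sugars, ions, metals, vitamins and metabolites across the plasma membrane and the membranes of organelles, most of them as exchangers or as cotransporters driven by an ion gradient. In the brain they clear glutamate and GABA from the space around cells, load synaptic vesicles, set intracellular chloride and bring glucose, lactate, leucine and cystine to dividing and differentiating cells. The largest family, Slc25, holds the carriers of the inner mitochondrial membrane.

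The lists differed in length, and so did the number of solute carrier genes in them. E12KO had 25229 peaks, of which 377 were assigned to 181 solute carrier genes. E47KO had 22176 peaks, with 311 on 155 such genes. The wt lists had 6814, 12772 and 24194 peaks in replicates 1, 2 and 3, with 76, 173 and 368 solute carrier peaks on 55, 95 and 168 genes, a mean of 106 ± 57.3 genes (SD, n = 3). E12KO had more such genes than any wt list, and E47KO had fewer than wt replicate 3 and more than the other 2 wt lists. Solute carrier peaks made up 1.50% of the peaks with a gene symbol in E12KO and 1.41% in E47KO, against 1.1%, 1.36% and 1.53% in wt replicates 1, 2 and 3. Depth in reads is unknown, so the length of a list and the binding behind it cannot be told apart.

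Of the 336 protein-coding RefSeq genes that fit the rule, 40 had a peak in all 5 lists, 55 in 4, 47 in 3, 33 in 2, 27 in 1 and 134 in none. The 202 with a peak in any list were 60.1%, beside 52.1% of all 21900 protein-coding genes. E12KO reached 53.9% of them and E47KO 46.1%, beside 45.1% and 40.7% of all. The wt lists reached 16.4%, 28.3% and 50% in replicates 1, 2 and 3, beside 17.5%, 27.8% and 42.8% of all. In the 3 long lists the solute carrier share was above that of all genes, and in wt replicates 1 and 2 the 2 shares were close.

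A region covered by peaks of at least 2 of the 3 wt lists, overlapping by at least 1 bp, is called a wt consensus region below, and a gene assigned such a region is called bound. There were 161 solute carrier regions among 12322, on 93 genes of 35 families. The 93 bound genes were 27.7% of the 336 (95% Wilson interval 23.2 to 32.7), beside 27.6% of all protein-coding genes. Within 10 kb of a start site the share was 14.0% (10.7 to 18.1), beside 16.7%, and at promoters it was 9.23% (6.58 to 12.8), beside 11.9%. All 3 shares were therefore near the background or below it. Intervals cover counting error only, and a nearest gene is an assignment by position, not evidence that the site acts on that gene. Bound solute carrier genes had a median length of 43.7 kb, against 25.6 kb for those not bound; over all protein-coding genes the medians were 35.6 kb and 13.2 kb, so in both sets the bound genes were the longer ones.

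Most solute carrier regions lay away from start sites. Of the 161, 62 were inside the gene they were assigned to, 48 were intergenic, 33 were at a promoter as the authors annotated it, 9 were inside another gene, 7 were in a UTR or just downstream of a transcript and 2 were inside a transcript that the annotation gave no gene number. The annotation called peaks promoter up to 2 kb from a start site in wt replicate 1 and up to 1 kb in the other 4 lists, and 1 of the 33, at Slc17a7, rests on the wider limit. The promoter share was 20.5% (15 to 27.4), beside 22.8% of all regions. By distance from the start site, 22.4% were within 2 kb, 14.3% between 2 and 10 kb, 32.9% between 10 and 50 kb and 30.4% beyond 50 kb, beside 24.9%, 13.4%, 30.4% and 31.4% of all. Upstream of the start site assigned to them lay 36.0% of the solute carrier regions, beside 36.4% of all. The background share was inside the counting interval of each of these shares. An assigned start can lie inside a gene, so upstream of it does not mean outside the gene. The Slc4a5 region in exon 10 of 25, for instance, counted as 8.79 kb upstream.

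Strength is known for wt replicate 1 alone, where the authors deposited a fold enrichment and a −log10 q for each peak. These are the authors' values and serve here to rank peaks within that list. The 76 solute carrier peaks had a median fold enrichment of 7.31 (quartiles 5.66 and 9.63, range 4.02 to 79.8), beside 7.48 for all 6814 peaks. At least 10-fold enrichment was reached by 22.4% of them, beside 29.2% of all peaks. A few sites stood far above the rest: Slc25a15 ranked 7 in the whole list by −log10 q, Slc27a1 ranked 47 and Slc25a42 ranked 283.

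**Figure D1:**
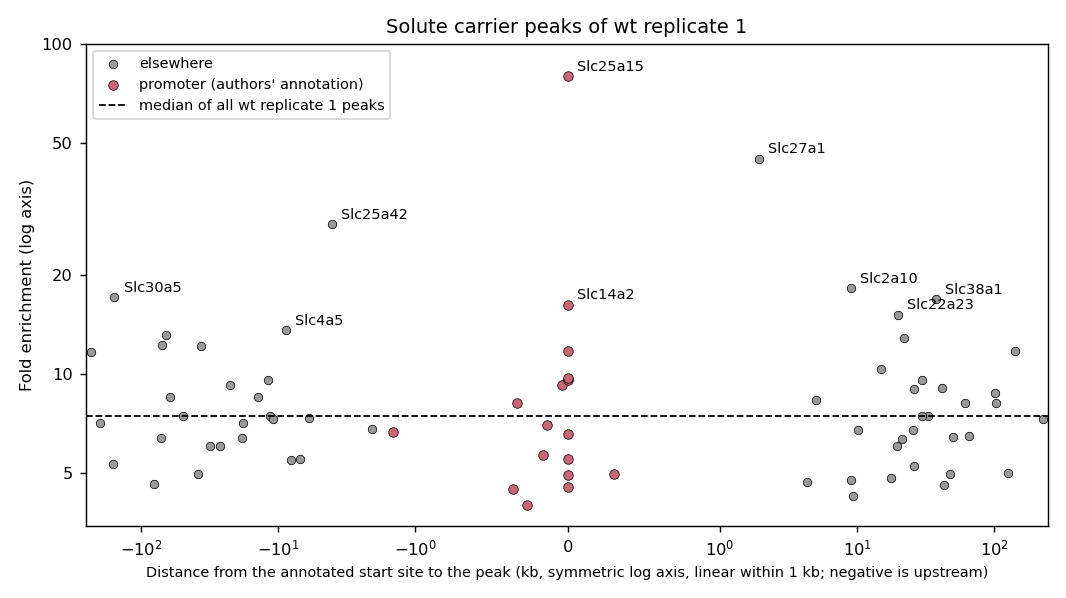
Fold enrichment of the 76 solute carrier peaks of wt replicate 1 (log axis) against the distance from the annotated start site to the near edge of the peak in kb, with promoter peaks in red and others in grey. Slc25a15 stands at 79.8 on its start site, and the dashed line marks the median of all 6814 peaks, 7.48.

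The strongest site was at the promoter of Slc25a15, the mitochondrial ornithine carrier of the urea cycle. It lay at chr8:23508386-23509345 (mm9), with its summit 87 bp inside the gene. The peak there was 721 bp wide in E12KO and 700 bp in E47KO, against 960, 371 and 782 bp in wt replicates 1, 2 and 3, so both knockout widths fell within the wt range. Width is how far the called region extends and moves with the depth of a library; it is given because the other 4 lists hold no score.

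The 250 bases before the RefSeq start site are shown for the 3 promoters that held a peak in all 5 lists, whose wt replicate 1 peak reaches the start site and whose RefSeq gene length matched that in the deposited annotation within 100 bp (RefSeq, GRCm38.p6, gene strand, 5′ to 3′). Capitals mark the E-box letters CANNTG. Positions are in GRCm38.p6, all 3 on the minus strand: chr8:22398622-22398871 for Slc25a15, chr11:20332714-20332963 for Slc1a4, a transporter of serine and other neutral amino acids, and chr11:102407518-102407767 for Slc25a39, a mitochondrial carrier needed for glutathione import.
Slc25a15: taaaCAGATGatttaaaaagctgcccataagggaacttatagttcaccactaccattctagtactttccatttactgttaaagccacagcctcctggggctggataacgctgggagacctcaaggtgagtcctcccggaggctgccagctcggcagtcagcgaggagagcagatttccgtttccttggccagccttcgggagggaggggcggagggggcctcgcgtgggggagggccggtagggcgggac
Slc1a4: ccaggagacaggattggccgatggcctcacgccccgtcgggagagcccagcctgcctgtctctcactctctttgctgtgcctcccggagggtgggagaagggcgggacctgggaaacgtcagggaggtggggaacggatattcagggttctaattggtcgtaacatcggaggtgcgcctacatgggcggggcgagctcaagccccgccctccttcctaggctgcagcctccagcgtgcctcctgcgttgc
Slc25a39: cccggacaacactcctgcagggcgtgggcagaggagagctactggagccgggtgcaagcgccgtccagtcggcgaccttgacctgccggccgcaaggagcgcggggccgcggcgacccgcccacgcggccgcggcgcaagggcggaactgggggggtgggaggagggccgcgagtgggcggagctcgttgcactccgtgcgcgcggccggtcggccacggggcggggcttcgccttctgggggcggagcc
The Slc25a15 bases hold 1 E-box, CAGATG, which begins at -246 from the start site, while the summit lies on the other side of the start site. No CANNTG is in the other 2 windows. The wt replicate 1 peak runs from -252 to 707 bases around the start in Slc25a15, from -574 to 419 in Slc1a4 and from -167 to 126 in Slc25a39, with negative positions upstream. Their GC contents were 57.6%, 64.8% and 77.2%, beside a median of 52.4% over all RefSeq promoter entries.

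E-box letters were counted across promoters. Of the 31 solute carrier genes with a promoter consensus region, 21 had a RefSeq entry, and both strands of these 250 bases were searched. Where a gene had several entries, a word in any of them counted for the gene. CAGCTG was in 19.0% of them, CAGGTG or its complement CACCTG in 23.8%, and any CANNTG, which includes these words, in 66.7%. For the 233 other solute carrier genes with an entry the shares were 15.9%, 23.6% and 74.2%, and for 17492 protein-coding genes 13.8%, 19.1% and 66.3%. A match describes letters and is not a site, and the window leaves out the part of each peak past the start. For 8 of the promoters with an entry, those with a region in all 5 lists, gene lengths were compared, and 4 differed by over 100 bp between RefSeq and the deposited annotation, so some windows may not be at the bound start site.

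The next strongest regions were mostly distal. Slc27a1, which brings long-chain fatty acids into cells, had 44.9-fold enrichment in intron 3 of 13 (region chr8:74096424-74097480). Its summit lay 2.40 kb past the start site assigned to it. That peak was 974 bp wide in E12KO and 694 bp in E47KO, against 876, 839 and 932 bp in wt replicates 1, 2 and 3. A further Slc27a1 region, at the promoter of another start site of the gene, had 11.7-fold enrichment and no peak in wt replicate 2. Slc25a42, a mitochondrial coenzyme A carrier, had 28.5-fold enrichment 4.06 kb upstream of its start, with peaks of 577 bp in E12KO and 340 bp in E47KO, against 721 and 502 bp in wt replicates 1 and 3 and none in wt replicate 2. A strong score in 1 wt library thus did not ensure a peak in another.

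Among the 15 highest ranked sites of wt replicate 1, 3 lay at promoters, those of Slc25a15, Slc14a2 and Slc38a3. Slc22a23 had 15.1-fold enrichment in intron 1, Slc38a1 had 16.8-fold in intron 4 and Slc2a10, a facilitative sugar transporter, had 18.2-fold in intron 1. Slc30a5, a zinc transporter of the secretory pathway, had 17.1-fold enrichment 156 kb upstream of its start. Slc24a2, a potassium-dependent sodium and calcium exchanger, had 11.6-fold enrichment 231 kb upstream. These peaks were found in all 5 lists. A peak in an intron of Slc14a2, with 11.7-fold enrichment 141 kb from the start, was found in wt replicate 1 alone. That list called it intron 20, but a neighbouring peak that it also placed in intron 20 was in intron 2 in every other list. Slc4a5, a sodium bicarbonate cotransporter, had 13.6-fold enrichment in exon 10 of 25 with peaks of 611 bp in E12KO, against 459 and 331 bp in wt replicates 1 and 3, and none in E47KO or wt replicate 2.

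**Figure D2:**
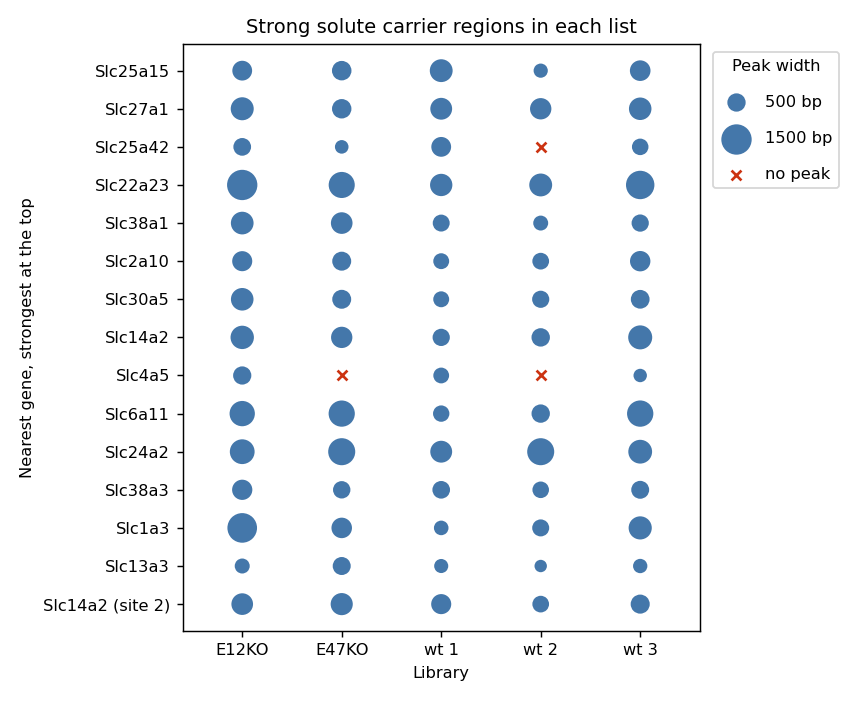
Solute carrier wt consensus regions, 15 of the strongest by −log10 q in wt replicate 1, shown by library, with circle area for peak width in bp and a red cross where a list had no peak. E12KO has a peak at all 15, E47KO lacks the Slc4a5 site, and wt replicate 2 lacks the Slc4a5 and Slc25a42 sites.

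By family, Slc25 had the most bound genes, 17 of 47, with 22 regions. Slc6, the sodium- and chloride-dependent transporters of transmitters and amino acids, had 7 of 19 with 14 regions, and Slc22, the organic ion transporters, had 7 of 24 with 13 regions. Slc1, the glutamate and neutral amino acid transporters, had 4 of 7 with 9 regions, and Slc38, the sodium-coupled neutral amino acid transporters, had 4 of 11 with 10 regions. No other family had more than 3 bound genes. Among these 5 families, promoter regions were 8 of 22 in Slc25, 4 of 10 in Slc38, 2 of 9 in Slc1, 1 of 14 in Slc6 and 0 of 13 in Slc22; these counts are small and were not tested. With peaks within 10 kb only, Slc25 had 10 bound genes and Slc22 had 1. Without wt replicate 2 the counts were 8 for Slc25, 4 for Slc6 and 4 for Slc22, and without wt replicate 3 they were 7, 3 and 2.

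Families were grouped whole by a main substrate, so some genes sat with substrates they do not carry. The vitamin transporter gene Slc5a6 counted as a sugar carrier and the serotonin transporter gene Slc6a4 as an amino acid transporter. The shares ran from 38.1% of genes for vitamin, heme, choline and urea transport (8 of 21) to 0 of 4 for loading of synaptic vesicles by Slc18 and Slc32. Mitochondrial carriers stood at 36.2% (17 of 47), sodium, calcium and proton exchangers at 35.3% (6 of 17), plasma membrane amino acid transporters at 31.8% (21 of 66) and metal transporters at 28.1% (9 of 32). Below the 27.6% of all protein-coding genes stood organic ion transporters (7 of 26), monocarboxylate and related carriers (7 of 28), nucleoside carriers (3 of 12), bicarbonate, chloride and sulfate carriers (8 of 35), sugar carriers (6 of 32) and phosphate and vesicular anion carriers (1 of 14).

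**Figure D3:**
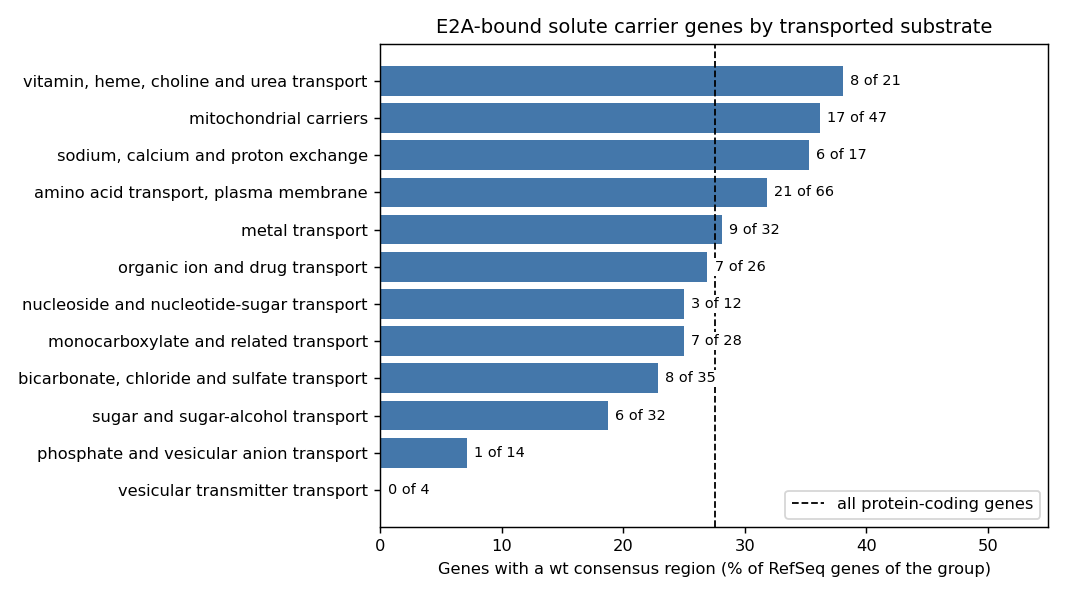
Percent of RefSeq genes with a wt consensus region for each group of solute carrier families, with the number of bound genes of how many beside each bar. Each family was placed whole by a main substrate. The dashed line is the 27.6% of all protein-coding genes, and the groups run from 38.1% for vitamin, heme, choline and urea transport to 0 of 4 for vesicular transmitter transport.

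Glutamate and GABA handling was covered by 16 listed genes, of which 10 were bound, beside 27.6% of all protein-coding genes. A promoter region was found for 5 of the 10, Slc17a7 among them through the wider limit of wt replicate 1, and together they had 24 regions. The list was chosen with earlier results of these data known. All 24 had a peak in E12KO and 22 had one in E47KO. Slc1a3, the glutamate transporter GLAST of radial glia and astrocytes, had 15 peaks in E12KO and 15 in E47KO, against 3, 5 and 16 in wt replicates 1, 2 and 3. Its strongest region lay 70.5 kb upstream of the start, with 12.2-fold enrichment and peaks of 1614 bp in E12KO and 774 bp in E47KO, against 391, 532 and 986 bp in wt replicates 1, 2 and 3. Another 2 of its 4 regions lay in introns 2 and 3. At the Slc1a3 promoter itself a peak was listed in E12KO, in E47KO and in wt replicate 3 and in neither of the other 2 wt lists.

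Slc1a2, the main astrocyte glutamate transporter, had a promoter region of 1293 bp in E12KO and 730 bp in E47KO, against 441 and 1293 bp in wt replicates 2 and 3, with no peak in wt replicate 1. Slc1a1, the neuronal glutamate transporter, had 1 region 7.08 kb upstream, of 500 bp in E12KO, against 363, 246 and 411 bp in wt replicates 1, 2 and 3, and E47KO had no peak on it. The glutamine transporter Slc38a1 had 4 regions, of which 1 was at its promoter and 2 were in intron 4. Slc38a3, another glutamine transporter, had its single region at the promoter, with 9.61-fold enrichment and a peak in every list. Slc17a7, a vesicular glutamate transporter, had a region at 1.64 kb upstream with 6.65-fold enrichment and no peak in wt replicate 2. The other 2 vesicular glutamate transporters, Slc17a6 and Slc17a8, the vesicular GABA transporter Slc32a1 and the plasma membrane GABA transporter Slc6a13 had no peak in any list under their own names.

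Slc6a11, a plasma membrane GABA transporter, had 4 peaks in E12KO and 2 in E47KO, against 2, 2 and 2 in wt replicates 1, 2 and 3. Its strongest region lay 36.8 kb upstream of the start (chr6:114043754-114045026), with 12.2-fold enrichment. The peak there was 1178 bp wide in E12KO and 1265 bp in E47KO, against 493, 621 and 1273 bp in wt replicates 1, 2 and 3, so both knockout widths fell within the wt range. A further region, 19.9 kb upstream, had peaks of 560 bp in E12KO and 407 bp in E47KO, against 413 and 442 bp in wt replicates 2 and 3, and none in wt replicate 1. No Slc6a11 peak was at a promoter. Slc6a12, a transporter of betaine and GABA, had 3 regions, of which 2 were in intron 7 of the neighbouring Slc6a13. It had 3 peaks in E12KO and 3 in E47KO, against 2, 1 and 3 in wt replicates 1, 2 and 3.

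Of 10 genes listed for glycine, monoamine and acetylcholine handling, 1 was bound, beside 27.6% of all protein-coding genes, and the difference was not tested. The bound gene was Slc29a4, a monoamine transporter whose 1 region lies in intron 16 of Tnrc18 at chr5:143215110-143215700. It had peaks of 318 and 574 bp in wt replicates 2 and 3 and none at that place in either knockout. The serotonin transporter gene Slc6a4, the glycine transporter gene Slc6a5 and the vesicular acetylcholine transporter gene Slc18a3 had no peak in any list.

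Among 10 genes listed for supply of cystine, leucine and other amino acids to growing cells, 4 were bound, beside 27.6% of all protein-coding genes. Slc7a5, the leucine transporter LAT1, had 4 regions. A region in intron 1 had 6.80-fold enrichment and widths of 1782 bp in E12KO and 1382 bp in E47KO, against 633, 1168 and 1662 bp in wt replicates 1, 2 and 3. Another region in intron 1 had no peak in wt replicate 1. Slc7a11, the cystine and glutamate exchanger, had 1 region 251 kb upstream. Slc7a1, a cationic amino acid transporter, had a promoter region of 1194 bp in E12KO and 1112 bp in E47KO, against 765 and 1135 bp in wt replicates 2 and 3. Slc36a4 had a region with a peak in E12KO and wt replicates 1 and 3 and none in E47KO. Slc3a2, the heavy chain partner of Slc7a5 and Slc7a11, had 2 promoter peaks in E12KO, 2 in E47KO, 2 in wt replicate 3 and 0 in wt replicates 1 and 2, so it was not bound by the consensus.

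Of 10 genes listed for glucose and lactate supply 8 had a peak somewhere and 1 was bound, beside 27.6% of all protein-coding genes. It was the lactate and pyruvate transporter gene Slc16a7, with a region 186 kb from its start. Slc2a1, the main glucose transporter of the blood-brain barrier, had 2 peaks in E12KO and 2 in E47KO, against 0, 0 and 2 in wt replicates 1, 2 and 3. Slc16a1, a lactate transporter, had 3 peaks in E12KO and 2 in E47KO, against 0, 0 and 3 in wt. Both genes therefore had peaks in the 3 longest lists only. Of 11 core mitochondrial carriers listed, 2 were bound, against 36.2% of the whole Slc25 family and 27.6% of all protein-coding genes: Slc25a15, and the aspartate and glutamate carrier Slc25a13, whose region lies in intron 14 of Dync1i1. The phosphate carrier Slc25a3 and the other aspartate and glutamate carrier Slc25a12 had no peak in any list, and the ADP/ATP carrier Slc25a4 had 1 peak in E12KO, 1 in E47KO and 2 in wt replicate 3.

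Of 10 chloride and bicarbonate carriers listed for neural cells, 3 were bound, beside 27.6% of all protein-coding genes. Slc4a3, an anion exchanger, had 11 peaks in E12KO and 9 in E47KO, against 0, 7 and 10 in wt replicates 1, 2 and 3. Its 4 regions all lay between 157 and 885 kb from its start. Slc4a4, a sodium bicarbonate cotransporter, had 1 region in intron 1. The opposed chloride transporters Slc12a2, which loads chloride, and Slc12a5, which extrudes it, had peaks in 3 and 2 lists but no consensus region.

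Of 11 zinc, iron and manganese transporters listed, 4 were bound, beside 27.6% of all protein-coding genes. Promoter regions were found at 3 of the 4, and all 9 of their regions had a peak in each knockout. Slc30a5 had 10 peaks in E12KO and 8 in E47KO, against 2, 6 and 9 in wt replicates 1, 2 and 3, and 5 regions. Slc11a2, which takes up iron, had a promoter region of 822 bp in E12KO and 541 bp in E47KO, against 374 and 805 bp in wt replicates 2 and 3. The promoter region of Slc39a10, a zinc importer, was 1538 bp in E12KO and 968 bp in E47KO, against 319 and 1081 bp in wt replicates 2 and 3. Slc30a10, a manganese exporter, had 1 region 12.8 kb upstream of its assigned start, annotated as 5′ UTR.

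Slc14a2, a urea transporter best known from the kidney, had the most regions of any solute carrier gene, 6, with 11 peaks in E12KO and 9 in E47KO, against 6, 4 and 10 in wt replicates 1, 2 and 3. Its promoter region had 16.2-fold enrichment. Slc22a23, Slc30a5 and Slc8a1, a sodium and calcium exchanger, had 5 regions each, and Slc12a8, Slc1a3, Slc38a1, Slc38a6, Slc4a3 and Slc7a5 were among those with 4. The other bound genes had fewer: 24 had 2 or 3 regions and 58 had 1. Of 11 genes listed for transport at the blood-brain barrier and choroid plexus, 3 were bound, beside 27.6% of all protein-coding genes, with 6 regions, 6 of them in E12KO and 5 in E47KO.

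At promoters, 113 solute carrier genes had a peak in at least 1 list, 28 in both knockouts and wt replicates 2 and 3, and 12 in all 5 lists. These were 33.6%, 8.33% and 3.57% of the 336 genes, beside 34.4%, 8.89% and 2.96% of all protein-coding genes, so each was near the background. Among the 12 were Slc14a2, Slc1a4, Slc24a3, Slc25a15, Slc25a18, Slc25a39, Slc2a10, Slc38a3, Slc39a13, Slc44a1 and Slc48a1. Slc25 gave 3 of them and no other family more than 1. Slc44a1 carries choline, Slc48a1 carries heme, Slc39a13 carries zinc and Slc25a18 carries glutamate into mitochondria. The Slc25a39 promoter peak was 2413 bp wide in E12KO and 2252 bp in E47KO, against 294, 690 and 2482 bp in wt replicates 1, 2 and 3. At this promoter the wt libraries differed more from each other than either knockout did from wt replicate 3.

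Nearly all wt consensus regions were found again in both knockouts. E12KO had a peak on 156 of 161, 96.9% (92.9 to 98.7), beside 96.6% of all regions. E47KO had a peak on 149, 92.5% (87.4 to 95.7), beside 93.5%. Both knockouts had one on 148, 91.9%, beside 92% of all. There was no peak in E12KO only at 1 region, in E47KO only at 8 and in either knockout at 4, that is 0.621%, 4.97% and 2.48%, beside 1.49%, 4.63% and 1.87% of all regions. Each share was close to that of all regions.

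The places without a knockout peak were named after their values were seen. E12KO alone lacked a peak at Slc39a11, a zinc transporter, in intron 6 (chr11:113300862-113301300), where E47KO had 382 bp, against 439 and 318 bp in wt replicates 1 and 3. Among the regions that E47KO alone lacked were single ones of Slc14a1, Slc1a1, Slc6a17, Slc25a51, Slc4a5, Slc36a4 and Slc25a43. The Slc25a51 region is the promoter of a mitochondrial NAD carrier gene, with 1417 bp in E12KO, against 279 and 1196 bp in wt replicates 2 and 3. Neither knockout had a peak at 1 region each of Slc2a12, Slc8a1, Slc14a2 and Slc29a4. Those 4 regions were in 2 wt lists each, with wt peaks of 222 to 574 bp.

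The 45 regions found in all 3 wt lists were 28% of the 161, beside 34.3% of all regions, and 42 of them, 26.1% of the 161, were in all 5 lists, beside 33.7%. E12KO lacked none of the 45. E47KO lacked 3, near Slc1a1, in exon 6 of Slc6a17, a vesicular carrier of neutral amino acids, and in intron 2 of Slc25a43. The Slc6a17 peak was 340 bp in E12KO, against 280, 377 and 375 bp in wt replicates 1, 2 and 3, and the Slc25a43 peak was 922 bp in E12KO, against 293, 452 and 714 bp. All 3 were below the median strength of wt replicate 1, with fold enrichments of 5.53, 4.77 and 4.82.

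How often a further wt library holds such regions gives the scale for the knockouts. Regions shared by wt replicates 1 and 2 numbered 46. E12KO had a peak on 100% of them (92.3 to 100) and E47KO on 93.5% (82.5 to 97.8), against 97.8% (88.7 to 99.6) in wt replicate 3. Over all such regions the shares were 99.3%, 97.9% and 98.9%. For the 64 regions shared by wt replicates 1 and 3, E12KO had 95.3% and E47KO 87.5%, against 70.3% in wt replicate 2; over all, 95.9%, 92.6% and 77%. For the 141 shared by wt replicates 2 and 3, E12KO had 98.6% and E47KO 95%, against 31.9% in wt replicate 1; over all, 98.2%, 96% and 38.4%. The order followed list length, with the short wt lists finding fewest, and E47KO was below E12KO in each of the 3 sets. These sets are not independent: the 45 regions of all 3 wt lists are in each, and the same knockout libraries were looked up each time.

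**Figure D4:**
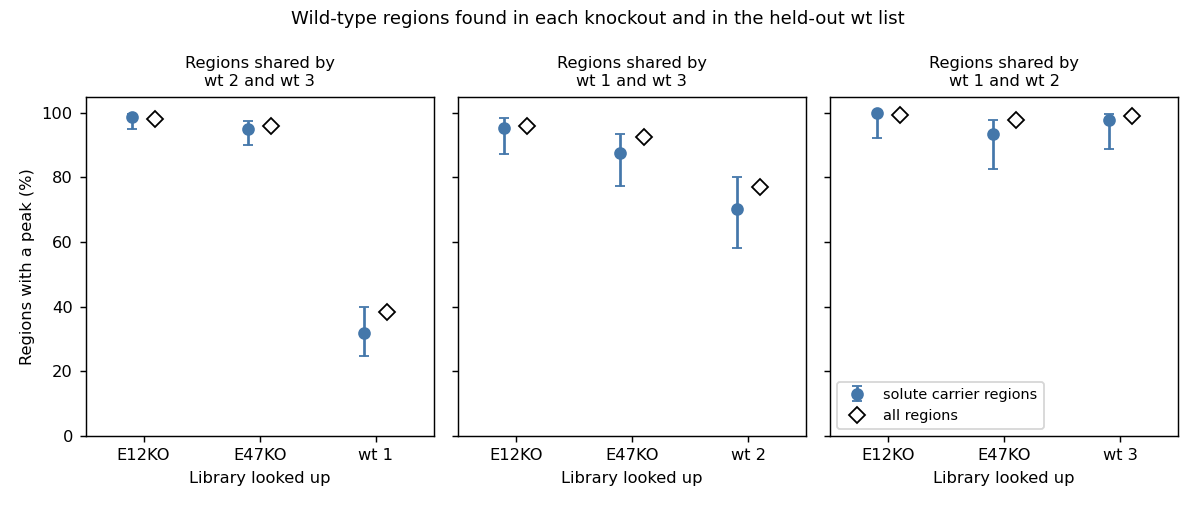
Percent of solute carrier regions shared by 2 wt lists (blue circles, 95% Wilson intervals) and of all such regions (open diamonds) that had a peak in E12KO, in E47KO and in the wt list not used. On regions shared by wt replicates 1 and 2, E12KO reaches 100%, E47KO 93.5% and wt replicate 3 97.8%.

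Some regions were found in the knockouts alone. Of 270 solute carrier regions with a peak in both knockouts, 21 had none in any wt list, 7.78%, beside 7.65% of all such regions. Of the 21, 12 were at promoters, 57.1%, beside 35.8% of all 1441 regions of that kind. The widest was at an Slc7a5 promoter (chr8:124419744-124421482), 1604 bp in E12KO and 1037 bp in E47KO. It lay close to the Slc7a5 intron 1 region with a peak in all 5 lists (chr8:124421952-124423613). Another Slc7a5 start site, at which E12KO also had a peak, had one of 633 bp in wt replicate 3. The Slc4a2 promoter, of an anion exchanger, had 1514 and 975 bp in E12KO and E47KO, and that of Slc4a4 had 335 and 938 bp. The promoters of the vitamin transporter gene Slc5a6 (884 and 799 bp), of the amino acid transporter genes Slc43a2 (920 and 718 bp) and Slc43a1 (849 and 631 bp), and of the sugar transporter gene Slc2a8 (703 and 726 bp) were of this kind as well. Slc45a1 had an intergenic one at -55493 bp from its start (774 and 662 bp). The 21 regions fell on 21 genes, of which 7 had no wt peak anywhere. Without wt replicate 3 the count would be 117, so it rests on that library.

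Merged over all 5 lists, solute carrier peaks formed 496 regions. Of these 29.6% were in 1 list, 18.3% in 2, 21.4% in 3, 22% in 4 and 8.67% in 5, beside 28.4%, 16.2%, 20.7%, 21.9% and 12.7% of all merged regions. The most frequent pattern was both knockouts with wt replicate 3, at 96 regions, and the next was both knockouts with wt replicates 2 and 3, at 91. E12KO alone held 49, E47KO alone 23 and wt replicate 3 alone 49. Both knockouts shared more solute carrier peaks with wt replicate 3 than with the shorter wt lists: E12KO peaks were found there in 79.0% of cases and E47KO peaks in 82.6%.

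Membrane transporters outside the rule were counted in the same way. Of 14 Slco genes, organic anion transporters, 5 were bound (35.7%) with 12 regions, 0 at promoters. Of 50 ATP-driven Abc transporters 11 were bound (22%), 3 at promoters. Of 15 P-type ATPase pumps 5 were bound (33.3%). The 27.7% of solute carrier genes lies among these shares.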

How the data were processed

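E2A ChIP-seq peak lists of 5 libraries were used, 1 E12KO, 1 E47KO and 3 wt. The submitters' processing notes name MACS2 2.1.0, BWA 0.7.13, Picard 1.119 and the mm9 genome, without settings. Each deposited list gives position, width, nearest gene and feature. For wt replicate 1 the authors also deposited a fold enrichment, a −log10 of p and of q, and a pileup coverage signal per peak. The false discovery rate named for wt replicate 1 differs from that named for the other lists.

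Overlap, merging and distances (near edge of the peak to the annotated start site) were recomputed alike for all lists with Python 3.11.15, pandas 2.3.3 and numpy 2.4.6, and figures with matplotlib 3.10.9. The distances given for Slc1a1, Slc17a7, Slc24a2 and the strongest regions of Slc1a3 and Slc6a11 are those of the wt replicate 1 summit instead. The overlap and merging code was tested on simulated peaks. Genes were matched by gene ID to RefSeq (GRCm38.p6); all 202 were found. A further 2 RefSeq solute carrier genes carry older symbols in the lists and are not members. Named genes were the 15 sites with the highest −log10 q in wt replicate 1, genes with at least 4 regions, the strongest genes of the families with at least 4 bound genes, up to 5 genes per list with those lacking a knockout peak, regions in all 3 wt lists lacking a knockout peak, the 8 widest regions in both knockouts only and promoters with a peak in all 5 lists. Some further genes were added after their values were seen. Members, groupings and gene lists were chosen with earlier results of these data known. No test was made: each knockout has 1 library, and regions are not replicates. Alternatives were another overlap, a 10 kb limit, all 3 wt lists, each wt list left out, a stricter q and promoters by distance. Some members are counted but not described here.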

Additional observations from a re-analysis of the deposited data

How the results depend on the processing

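With peaks within 10 kb of a start site only, 59 solute carrier consensus regions remained on 47 genes, 14.0% of the RefSeq genes, 55.9% of the regions were at promoters, E12KO had a peak on 100% of them and 0 lacked a peak in both knockouts. E47KO then had 101 genes with a peak, and the wt lists 61 on average. In all 3 wt lists there were 45 regions on 34 genes of 17 families, 10.1% of the RefSeq genes, with a peak in E12KO on 100% and 0 lacking one in both knockouts. Leaving out 1 wt list gave 46 to 141 regions, 35 to 85 genes, 17 to 32 families and 10.4% to 25.3% of the RefSeq genes. Peaks in E12KO then covered 95.3% to 100%, those in E47KO 87.5% to 95%, 0 to 2 regions lacked both, and regions in both knockouts alone numbered 22 to 117, the last without wt replicate 3. With an overlap of 50% of the shorter peak there were 159 regions on 92 genes, and the other main values stayed within 1.5 times of the reported count or within the interval of the reported share. A −log10 q of at least 5 in wt replicate 1, run for the regions and genes, gave 160 and 92. Promoters taken as within 2 kb, run for the promoter share, gave 22.4%. No paired analysis was possible because each knockout has 1 library. Reads per library are unknown, and list length limits every count.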
